A study of Mus musculus with 6 samples.

Results

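Hdc, the gene of the enzyme that makes histamine, was measured together with 8 genes used as markers of basophils and mast cells in neutrophils sorted from mouse bone marrow. The set is given by symbol (Hdc, Cpa3, Mcpt8, Ms4a2, Fcer1a, Kit, Gata2, Cd200r3 and Prss34), and each symbol matched 1 row, so that 9 of the 47561 rows in the deposited files are described here. The neutrophils came from male wild-type (WT) mice. One group, CUMS, went through 4 weeks of chronic unpredictable mild stress, in which changing mild environmental stressors are applied in sequence, and the other, Control, did not. Each group held 3 libraries. Strain, age and gating markers, and whether the libraries represent separate animals, are not given here. The p-values therefore measure the spread between these libraries, which may be technical.

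Histamine is made from the amino acid histidine in a single step by histidine decarboxylase, the product of Hdc. Basophils and mast cells store it in granules and release it when antigen crosslinks IgE held on the high-affinity IgE receptor, which is built from an alpha chain (Fcer1a), a beta chain (Ms4a2) and a gamma chain (Fcer1g) shared with other Fc receptors. Hdc is not confined to those cells in the mouse: immature myeloid cells of the bone marrow, the neutrophil lineage among them, transcribe it too. Gata2 is a transcription factor of haematopoietic progenitors, mast cells and basophils, and GATA factors bind short GATA motifs in DNA.

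Hdc was abundant and was the 1 member called (edgeR, adjusted p under 0.05): it fell to 826.4 ± 16.3 CPM in CUMS, against 1051 ± 9.95 CPM in Control (SD, n = 3 each). CPM are estimated counts scaled to a common library total of 1e6. The basophil and mast cell markers other than Kit were scarce, at no more than 4.13 CPM in any library. Of the 8 markers, 7 had lower mean levels in CUMS and 0 passed the test. Over all genes tested, 51.6% had a negative log2 fold change and 4.50% were called in either direction. The lowest ratios among the markers were those of Ms4a2 and Gata2, 0.334 and 0.349 of the Control level, with adjusted p-values of 0.068 and 0.053 against a threshold of 0.05 (edgeR). Kit measured 32.5 ± 2.32 CPM in CUMS and 30.7 ± 2.13 CPM in Control.

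The promoters shown are those of the 4 members whose CUMS libraries all lay below all Control libraries, a choice made from these values. GATA motifs were marked because Gata2, a GATA factor, is a member, although it was not called. Whether Gata2 acts on any of these genes was not tested. Each promoter is the RefSeq window on GRCm38.p6 from 250 bases before to 50 bases after the annotated start, written 5′ to 3′ on the gene's strand. Capitals mark GATA motifs on either strand, which were AGATAA, the same ending in G (AGATAG), the form that begins with T (TGATAA), and that form ending in G (TGATAG). Those marked in these windows do not overlap each other. The Hdc window is chr2:126618629-126618928 (minus strand), the Ms4a2 window chr19:11623670-11623969 (minus strand), the Prss34 window chr17:25298144-25298443 (plus strand) and the Gata2 window chr6:88193641-88193940 (plus strand, the first of 2 annotated starts). The Hdc window lies inside the GENCODE span of the gene given below, so its RefSeq start differs from the outer end of that span, 126619299.
Hdc: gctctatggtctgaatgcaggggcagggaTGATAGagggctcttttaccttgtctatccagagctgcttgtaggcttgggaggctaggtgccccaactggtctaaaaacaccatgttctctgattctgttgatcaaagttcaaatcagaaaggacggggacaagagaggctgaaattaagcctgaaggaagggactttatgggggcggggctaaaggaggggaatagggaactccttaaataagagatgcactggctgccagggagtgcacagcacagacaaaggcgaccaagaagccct
Ms4a2: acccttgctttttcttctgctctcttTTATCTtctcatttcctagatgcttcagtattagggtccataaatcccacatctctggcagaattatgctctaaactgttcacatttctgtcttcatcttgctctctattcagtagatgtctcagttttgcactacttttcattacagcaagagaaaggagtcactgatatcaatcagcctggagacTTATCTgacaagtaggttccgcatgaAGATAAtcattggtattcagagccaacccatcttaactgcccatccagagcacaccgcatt
Prss34: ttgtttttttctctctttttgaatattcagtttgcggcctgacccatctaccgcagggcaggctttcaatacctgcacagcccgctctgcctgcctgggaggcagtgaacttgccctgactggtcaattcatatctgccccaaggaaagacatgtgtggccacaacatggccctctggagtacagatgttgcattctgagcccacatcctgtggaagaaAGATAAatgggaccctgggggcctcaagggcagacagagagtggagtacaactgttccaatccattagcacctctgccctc
Gata2: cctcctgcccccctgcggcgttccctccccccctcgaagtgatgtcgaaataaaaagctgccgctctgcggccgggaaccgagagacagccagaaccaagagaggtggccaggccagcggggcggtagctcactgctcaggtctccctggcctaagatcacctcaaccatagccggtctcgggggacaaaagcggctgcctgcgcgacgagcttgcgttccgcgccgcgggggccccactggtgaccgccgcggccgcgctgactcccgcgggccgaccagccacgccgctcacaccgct
Hdc held 1 motif, beginning 221 bases before the start, and Prss34 held 1, beginning 31 bases before it. Ms4a2 held 3, at 224, 37 and 11 bases before the start, and the Gata2 windows at either start held none. Over all 9 members, 6 had a motif, in 6 of the 11 windows (these 3 with Cpa3, Fcer1a and Cd200r3), while 29.8% of the 32851 promoter windows in the table held one. The E-box, searched as CACGTG or as CATGTG on both strands, was in the windows of Fcer1a and Prss34 and in 20.4% of all windows, and the STAT motif TTCNNNGAA was in 0 members' windows and in 8.30% of all. A match describes the letters of the window and is not a binding site.

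The files hold estimated counts, and values of 4, 8, 12 and 16 were 1.38 to 1.89 times as common as their neighbours, so that a read pair was worth about 4. Library totals were 85799370 to 109757558 estimated counts in CUMS and 78845457 to 103483602 in Control. A gene listed at 0 can hold up to 3 read pairs, or 12 estimated counts, which is 0.108 to 0.153 CPM per library. Such floors, and the intervals given for summed read pairs, reflect counting error alone, because no molecular identifiers separate PCR copies. Neutrophil markers were abundant: Ly6g measured 381.0 to 492.3 CPM in CUMS and 439.1 to 479.7 CPM in Control, and Csf3r, the receptor for granulocyte colony-stimulating factor, 4448 to 4801 CPM in CUMS and 4299 to 4381 CPM in Control.

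Hdc (chromosome 2, 126593667 to 126619299, minus strand, GRCm38) has 5 annotated transcripts, which the gene-level values do not separate. Its level was 823.9, 843.9 and 811.5 CPM in CUMS replicates 1 to 3, against 1055, 1040 and 1059 CPM in Control replicates 1 to 3. The groups did not overlap, and the libraries within each group were close, with an SD of 1.98% of the mean in CUMS and 0.947% in Control. The log2 fold change was -0.35 ± 0.034 (SE; 95% interval -0.42 to -0.27), a level 21.4% lower in CUMS (edgeR quasi-likelihood test, adjusted p = 0.00019). In that comparison 338 of 15778 genes tested, or 2.14%, were called lower in CUMS 2.36% were called higher and 4.50% in either direction. Hdc ranked between 96 and 164 among the genes tested in every library, and its 17343 to 26870 read-pair equivalents per library leave counting error small beside the difference. An exact two-sided permutation test of the 6 values gave p = 0.1, the smallest that 3 against 3 libraries allow. Hdc was called lower in all 12 alternative settings, with log2 fold changes of -0.36 to -0.33 and adjusted p-values up to 0.0047.

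The tested genes next to Hdc on the chromosome were not called. Gabpb1, a subunit gene of a transcription factor, begins 8.1 kb past Hdc and measured 53.9 ± 1.53 CPM in CUMS and 51.8 ± 1.00 CPM in Control (log2 fold change 0.06 ± 0.051, adjusted p = 0.65). Slc27a2, a fatty acid transport gene 5.4 kb on the other side, measured 0.809 ± 0.323 CPM in CUMS and 1.25 ± 0.464 CPM in Control (-0.62 ± 0.40, adjusted p = 0.49). Among the nearest tested genes on either side of the 8 markers, only Rpn1 and Aim2 were called, beside 4.50% of all genes tested. Rpn1, 88.6 kb from Gata2, fell (-0.25 ± 0.053, adjusted p = 0.022) and Aim2, 123.7 kb from Fcer1a, rose (0.34 ± 0.069, adjusted p = 0.017).

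**Figure D1:**
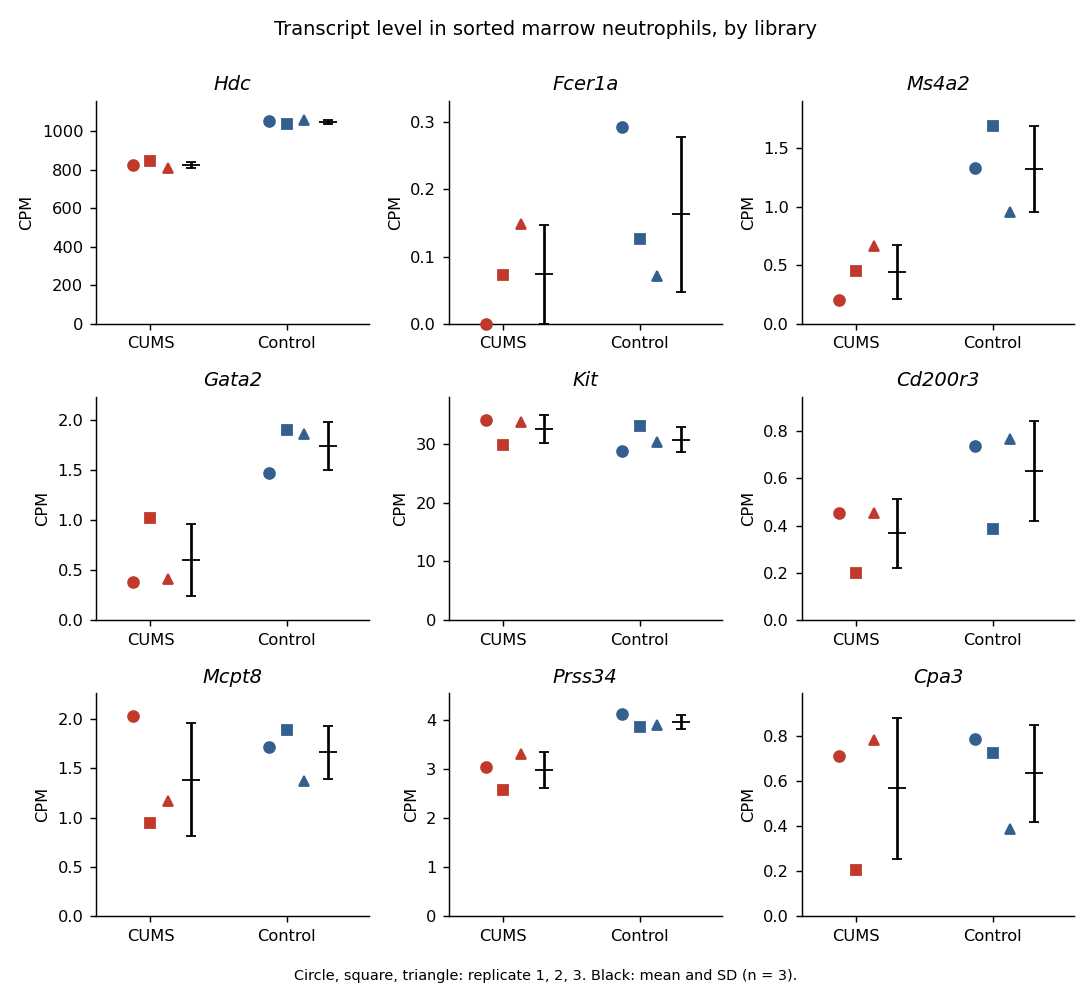
Transcript level (CPM, linear axes from 0) of Hdc and the 8 markers in each CUMS and Control library, with the group mean and SD (n = 3) in black. Hdc sits at 811.5 to 843.9 CPM in CUMS and 1040 to 1059 CPM in Control, and the groups also stay apart for Ms4a2, Gata2 and Prss34, while the markers other than Kit never exceed 4.13 CPM.

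Levels of different genes were compared per kb of exon. On this scale Hdc measured 129.4 ± 2.56 CPM per kb in CUMS and 164.5 ± 1.56 CPM per kb in Control. Over all 6 libraries the order of mean levels was Hdc (146.9 CPM per kb), Kit (3.55), Prss34 (2.85), Mcpt8 (1.52), Cpa3 (0.397), Ms4a2 (0.313), Gata2 (0.217), Fcer1a (0.118) and Cd200r3 (0.0834). Hdc stood far above every marker in every library. Kit and Prss34 overlapped in Control (3.24 to 3.71 and 3.16 to 3.38 CPM per kb) but not in CUMS, where Kit spanned 3.35 to 3.82 and Prss34 2.11 to 2.71 CPM per kb. This overlap depends on the length used. With the longest transcript as length the means over all 6 libraries were 6.03 for Kit and 2.85 for Prss34, and the ranges overlapped in neither group. The ranges over libraries of each neighbouring pair from Cpa3 down to Cd200r3 overlapped, so the order of neighbours among these 5 genes is not resolved. The ends did not overlap on this scale, by a narrow margin. Cpa3 was at least 0.136 CPM per kb (CUMS replicate 2, 5.75 read-pair equivalents) and Cd200r3 at most 0.128 (Control replicate 3). With the longest transcript as length their ranges overlapped, so the order of the ends is not resolved either.

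Set against the 7 markers other than Kit, summed per kb, Hdc was 24.7, 36.2 and 25.7 times as high in CUMS replicates 1 to 3 and 24.3, 24.4 and 29.0 times as high in Control replicates 1 to 3. The ranges of this ratio overlapped between the groups. The summed level of the same 7 markers was 6.83, 5.47 and 6.95 CPM in CUMS, against 10.5, 10.6 and 9.31 CPM in Control, with no overlap. Kit was left out of this sum after its level was seen, and with Kit the sum was 40.8, 35.3 and 40.6 CPM in CUMS and 39.3, 43.6 and 39.6 CPM in Control, which overlap. In bulk RNA, fewer cells of a type and less RNA per cell cannot be told apart.

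**Figure D2:**
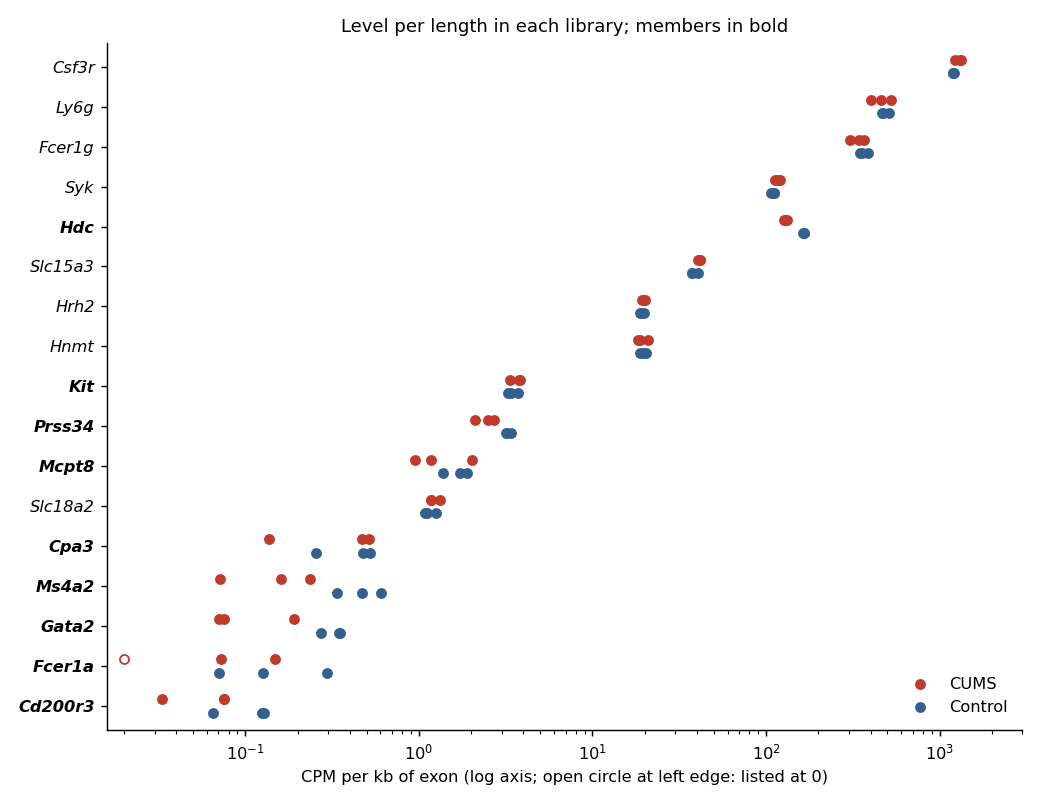
Level per length (CPM per kb of exon, log axis) of the members, in bold, beside neutrophil, IgE receptor signalling and histamine pathway genes, with 1 point per CUMS or Control library. Hdc, at 127.0 to 165.7 CPM per kb, lies between the signalling genes Syk and Fcer1g, and the markers lie from 3.82 CPM per kb down to a Fcer1a value listed at 0 (open circle).

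The ligand-binding and signal-boosting chains of the IgE receptor were scarce. Fcer1a (chromosome 1, 173221284 to 173227214, minus strand), the chain that binds IgE, had 0, 8 and 16 estimated counts in CUMS replicates 1 to 3 and 23, 13 and 6 in Control replicates 1 to 3. That is 6.00 read-pair equivalents in all in CUMS (exact Poisson 95% interval 2.20 to 13.1) and 10.5 in Control (5.14 to 19.0), and 2 CUMS libraries and 1 Control library were under the floor. No difference was detectable at this depth (log2 fold change -1.11 ± 1.1, 95% interval -3.61 to 1.39, adjusted p = 0.71).

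Ms4a2 (chromosome 19, 11615523 to 11623719, minus strand), the chain that amplifies the receptor's signal, measured 0.202, 0.449 and 0.666 CPM in CUMS replicates 1 to 3, against 1.33, 1.69 and 0.954 CPM in Control replicates 1 to 3. Every CUMS library lay below every Control library. The mean was 0.439 ± 0.232 CPM in CUMS and 1.32 ± 0.369 CPM in Control (SD, n = 3 each; log2 fold change -1.58 ± 0.44, 95% interval -2.54 to -0.63), and the adjusted edgeR p of 0.068 missed the threshold of 0.05. These levels rest on 34.8 read-pair equivalents summed over CUMS (24.2 to 48.4) and 90.0 over Control (72.4 to 110.6). The neighbouring gene Ms4a3, a marker of granulocyte-monocyte progenitors 5.8 kb away, measured 2.89 ± 0.317 CPM in CUMS and 3.56 ± 0.361 CPM in Control (log2 fold change -0.30 ± 0.18, adjusted p = 0.42).

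The gamma chain and some of the enzymes below the receptor, which neutrophils use with other receptors, were abundant, others were scarce, and none was called. Fcer1g measured 293.9 ± 27.2 CPM in CUMS and 317.4 ± 17.6 CPM in Control (log2 fold change -0.11 ± 0.064, adjusted p = 0.43). The kinase genes Syk, at 1093 ± 30.0 CPM in CUMS and 1029 ± 23.5 CPM in Control, and Lyn, at 521.4 ± 5.86 CPM in CUMS and 515.4 ± 1.74 CPM in Control, were not called either (adjusted p = 0.25 and 0.88). The kinase gene Fyn measured 0.457 ± 0.129 CPM in CUMS and 0.793 ± 0.332 CPM in Control, and the phospholipase gene Plcg1 1.06 ± 0.315 CPM in CUMS and 1.24 ± 0.228 CPM in Control (adjusted p = 0.40 and 0.81 with edgeR). Of 17 genes of the receptor and its proximal signalling, 17 were tested and 0 passed with edgeR (4 at an unadjusted p under 0.05, 0 with DESeq2 and 0 with limma voom), with a median log2 fold change of -0.02 beside -0.007 over all genes tested. An unadjusted edgeR p under 0.05 was seen for 16.9% of all genes tested. DESeq2 gave an adjusted p for only 10575 of the 15778 genes, and none for Ms4a2 or Fcer1a. Its counts, here and for the lists below, take genes without one as not called. Lat, an adaptor that mast cells and T cells use, had 0.0475, 0.0270 and 0.0555 CPM in CUMS and 0.140, 0.329 and 0.247 CPM in Control, with all 3 CUMS libraries and 1 Control library under the floor (adjusted p = 0.17). Lat passed the filter on low values through Control alone, so its lower estimate in CUMS is not a result.

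Gata2 (chromosome 6, 88193891 to 88207032, plus strand) measured 0.380, 1.02 and 0.407 CPM in CUMS replicates 1 to 3, against 1.47, 1.90 and 1.86 CPM in Control replicates 1 to 3. The groups did not overlap, and CUMS replicate 2 lay closest to Control. The log2 fold change was -1.52 ± 0.39 (95% interval -2.38 to -0.66), with an adjusted edgeR p of 0.053 that missed the threshold. The summed read-pair equivalents were 47.5 in CUMS (exact Poisson 95% interval 35.0 to 63.1) and 117.2 in Control (97.0 to 140.5). Over the 11 alternatives that gave a value the adjusted p ran from 0.012 to 0.19 and passed in 4, among them the fit without CUMS replicate 2 (log2 fold change -2.14, adjusted p = 0.012) and the fit with the replicate number as a block (-1.66, 0.024).

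Kit (chromosome 5, 75574916 to 75656722, plus strand), the receptor for stem cell factor on progenitors and mast cells, was the only marker above 5 CPM. It measured 34.0, 29.8 and 33.7 CPM in CUMS replicates 1 to 3, against 28.8, 33.0 and 30.3 CPM in Control replicates 1 to 3. The groups overlapped (log2 fold change 0.08 ± 0.076, 95% interval -0.09 to 0.25, adjusted p = 0.68). Of 14 genes of stem and progenitor cells, Kit and Gata2 among them, 11 were tested and 0 passed with edgeR (4 at an unadjusted p under 0.05, beside 16.9% of all genes tested, 1 with DESeq2 and 2 with limma voom), and the median log2 fold change was -0.12. Sox4, a transcription factor of progenitors, measured 2.42 ± 0.432 CPM in CUMS and 1.13 ± 0.383 CPM in Control (log2 fold change 1.10 ± 0.29, adjusted p = 0.054), the opposite direction to Gata2. Cd34 was at most 0.290 CPM in any library.

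Cd200r3 (chromosome 16, 44943678 to 44981380, plus strand), an activating receptor of the CD200 receptor family that marks mouse basophils and mast cells, measured 0.451, 0.198 and 0.453 CPM in CUMS replicates 1 to 3, against 0.739, 0.387 and 0.766 CPM in Control replicates 1 to 3. CUMS replicates 1 and 3 lay above Control replicate 2, so the groups overlapped (log2 fold change -0.78 ± 0.51, 95% interval -1.90 to 0.35, adjusted p = 0.51). Its tested neighbour of the same family, Cd200r4, measured 4.45 ± 0.681 CPM in CUMS and 5.79 ± 0.0982 CPM in Control (-0.38 ± 0.15, adjusted p = 0.22).

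Among the granule proteases, Prss34 (chromosome 17, 25298394 to 25300165, plus strand), the gene of a basophil serine protease also called mouse mast cell protease 11, was the highest. It measured 3.05, 2.58 and 3.31 CPM in CUMS replicates 1 to 3, against 4.13, 3.86 and 3.90 CPM in Control replicates 1 to 3. The groups did not overlap, but the difference missed the threshold (log2 fold change -0.41 ± 0.17, 95% interval -0.78 to -0.05, adjusted p = 0.23). Its estimated ratio of CUMS to Control, 0.752, lay near the 0.786 of Hdc, with a far wider interval.

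Mcpt8 (chromosome 14, 56082166 to 56085273, minus strand), the gene of the basophil-restricted protease mast cell protease 8, measured 2.03, 0.944 and 1.17 CPM in CUMS replicates 1 to 3, against 1.72, 1.89 and 1.37 CPM in Control replicates 1 to 3. CUMS replicate 1 was the highest of the 6 libraries and CUMS replicate 2 the lowest, and the groups overlapped (log2 fold change -0.27 ± 0.31, 95% interval -0.95 to 0.41, adjusted p = 0.76). Without CUMS replicate 1 the log2 fold change was -0.65 (adjusted p = 0.28), and without CUMS replicate 2 it was -0.05 (adjusted p = 0.97). The next tested gene of the same protease cluster, the neutrophil and mast cell protease gene Ctsg 14.6 kb away, measured 0.790 ± 0.284 CPM in CUMS and 0.460 ± 0.185 CPM in Control (0.78 ± 0.46, adjusted p = 0.43).

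Cpa3 (chromosome 3, 20215620 to 20242181, minus strand), carboxypeptidase A3 of mast cell and basophil granules, measured 0.713, 0.207 and 0.786 CPM in CUMS replicates 1 to 3, against 0.790, 0.726 and 0.389 CPM in Control replicates 1 to 3. The groups overlapped (log2 fold change -0.16 ± 0.53, 95% interval -1.33 to 1.00, adjusted p = 0.93). Without CUMS replicate 2 the log2 fold change was 0.24 and without Control replicate 1 it was 0.02, so its direction is not set by these libraries. In CUMS replicate 2, Cpa3, Mcpt8, Cd200r3, Prss34 and Kit were each at their lowest of the 3 CUMS libraries, whereas Gata2 was at its highest there.

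All 9 members passed the filter on low values. Of them 1 was called, and 8 had a negative log2 fold change, beside 51.6% of all genes tested, with a median of -0.41. Groups that did not overlap were seen with CUMS lower in 4 members (Hdc, Ms4a2, Gata2 and Prss34), beside 11.5% of all genes tested, and with CUMS higher in 0, beside 11.5%. An unadjusted p under 0.05 was seen for the same 4 members and for 16.9% of all genes tested.

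**Figure D3:**
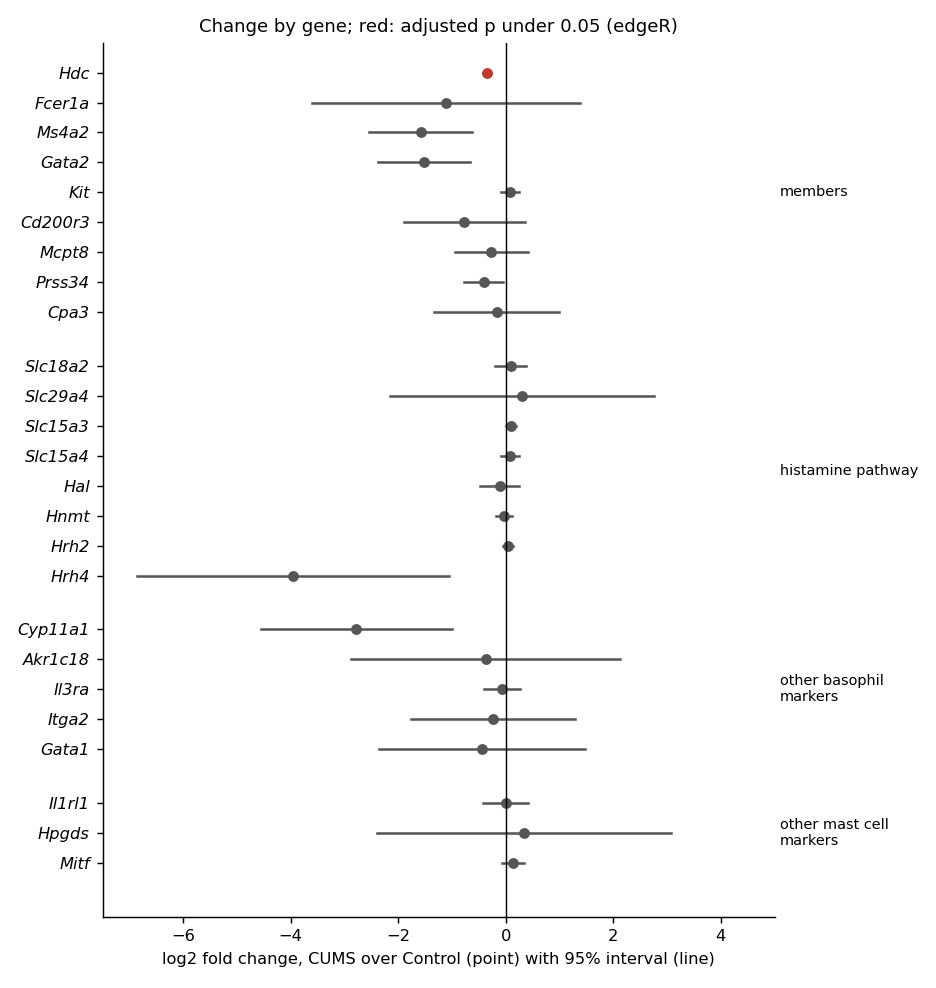
Log2 fold change of CUMS over Control (points) with 95% intervals (lines) for the 9 members and for the tested genes of the histamine pathway and of the other basophil and mast cell lists, red where the adjusted edgeR p is under 0.05. Hdc alone is red, at -0.35, and the intervals of Ms4a2, Gata2, Prss34, Hrh4 and Cyp11a1 also lie below 0. Hrh4 and Cyp11a1 rest on CUMS libraries at or near 0. Hrh4 passed the filter on low values through Control alone, so its direction was set by the filter.

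Outside histamine synthesis no tested gene of the pathway was called. Of 15 genes from histidine supply to histamine receptors, 9 were tested, Hdc fell, 0 rose and 8 did not pass, with a median log2 fold change of 0.05. Hnmt, whose product inactivates histamine inside cells by methylation, measured 34.0 ± 2.40 CPM in CUMS and 34.7 ± 1.3 CPM in Control (log2 fold change -0.03 ± 0.069, 95% interval -0.18 to 0.12, adjusted p = 0.90). Aoc1, which encodes diamine oxidase, the extracellular route of breakdown, was listed at 0 in all 6 libraries.

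Of the 4 histamine receptors, Hrh2, a receptor that raises cyclic AMP, was the abundant one, at 115.2, 119.5 and 118.1 CPM in CUMS replicates 1 to 3, against 112.9, 111.4 and 117.1 CPM in Control replicates 1 to 3. These ranges overlapped (log2 fold change 0.05 ± 0.044, 95% interval -0.05 to 0.14, adjusted p = 0.67). Hrh4, a chemotactic receptor of eosinophils and mast cells, had 3, 0 and 0 estimated counts in CUMS, all under the floor, and 21, 15 and 12 in Control (adjusted p = 0.14). It passed the filter on low values through Control alone, so its lower estimate in CUMS is not a result. Hrh1 and Hrh3 were listed at 0 in every library. Slc18a2, the vesicular transporter that loads histamine into granules, measured 6.40 ± 0.442 CPM in CUMS and 6.00 ± 0.476 CPM in Control (0.09 ± 0.13, adjusted p = 0.80).

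On the supply side, Hal, whose product diverts histidine to urocanate, measured 5.79 ± 1.32 CPM in CUMS and 6.25 ± 0.143 CPM in Control (log2 fold change -0.11 ± 0.16, adjusted p = 0.82). The endolysosomal peptide and histidine transporter genes Slc15a3 and Slc15a4 had log2 fold changes of 0.10 ± 0.046 and 0.08 ± 0.071 (adjusted p = 0.30 and 0.65). Slc29a4, a monoamine transporter gene, was at most 0.203 CPM, with a log2 fold change of 0.30 ± 1.1 (adjusted p = 0.94). Slc22a3, Maoa and Maob were under the floor in all 6 libraries.

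Genes specific to tissue mast cells were mostly not detected. Of 15 other mast cell markers, 11 were listed at 0 in all 6 libraries, the chymase Cma1, the tryptases Tpsb2 and Tpsab1, Mcpt4 and the receptor Mrgprb2 among them. Mitf, Il1rl1 and Hpgds were tested, and 0 passed with edgeR (0 at an unadjusted p under 0.05, 0 with DESeq2 and 0 with limma voom), with a median of 0.14. Mitf, a transcription factor of mast cells that other myeloid cells also express, measured 13.3 ± 0.614 CPM in CUMS and 12.1 ± 0.507 CPM in Control (adjusted p = 0.53). The summed level of the list was 19.0 to 19.6 CPM in CUMS and 15.8 to 19.7 CPM in Control.

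Of 9 other basophil markers, Il4 and Il13 were listed at 0 in all 6 libraries, 6 were tested and 0 passed with edgeR (1 at an unadjusted p under 0.05, 0 with DESeq2 and 0 with limma voom). The 0 with DESeq2 may include scarce genes to which it gave no adjusted p. The median log2 fold change was -0.30, and the list summed to 13.2 to 16.6 CPM in CUMS and 13.9 to 16.3 CPM in Control. Cyp11a1, a steroid synthesis gene expressed by mouse basophils, had 0, 14 and 26 estimated counts in CUMS replicates 1 to 3 and 64, 79 and 86 in Control replicates 1 to 3. Its groups did not overlap, and it missed the threshold (log2 fold change -2.78 ± 0.81, adjusted p = 0.087). Il3ra, a receptor chain for interleukin 3, the main growth factor of basophils, measured 7.48 ± 1.26 CPM in CUMS and 7.84 ± 0.984 CPM in Control (-0.07 ± 0.15, adjusted p = 0.89).

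Some markers of other cell types were higher in the same CUMS libraries. Over all genes tested, 2.36% were called higher and 2.14% lower. Of 10 erythroid markers, 9 rose (median 0.88), and the list summed to 2523 to 3011 CPM in CUMS and 1306 to 1875 CPM in Control. Of 9 eosinophil markers, Prg2 and Epx rose (median 1.44, sums of 51.6 to 60.3 CPM in CUMS and 44.9 to 51.9 CPM in Control). The most abundant of the 9, Ear2, measured 27.0 ± 4.67 CPM in CUMS and 26.4 ± 4.43 CPM in Control (log2 fold change 0.03). Siglecf measured 20.1 ± 1.03 CPM in CUMS and 19.2 ± 0.676 CPM in Control (0.07). Scarce genes weigh on the median: Ear6 was under the floor in 3 Control libraries and Il5ra in 2. Prg2, the major basic protein gene of eosinophil granules, was 5.45-fold higher in CUMS. Of 7 monocyte markers, Csf1r and F13a1 rose (median 0.41, sums of 205.9 to 206.8 CPM in CUMS and 172.7 to 182.9 CPM in Control). Among the 12 neutrophil markers Mmp9 rose and Ltf and Camp fell (median -0.07, sums of 111146 to 138115 CPM in CUMS and 130364 to 142440 CPM in Control), with 0 calls left when CUMS replicate 2 or 3 or Control replicate 2 or 3 was omitted. None of the 7 B cell, 3 plasma cell and 3 tested of 6 T and NK cell markers passed with edgeR (1, 0 and 0 at an unadjusted p under 0.05, 1, 0 and 0 with DESeq2), and their medians were 0.27, 0.30 and -0.05, with sums of 30.5 to 35.0, 3.74 to 4.89 and 4.12 to 5.65 CPM in CUMS and 20.8 to 28.4, 3.11 to 3.67 and 3.90 to 5.84 CPM in Control. The part of these cell types in the level of Hdc was not tested.

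**Figure D4:**
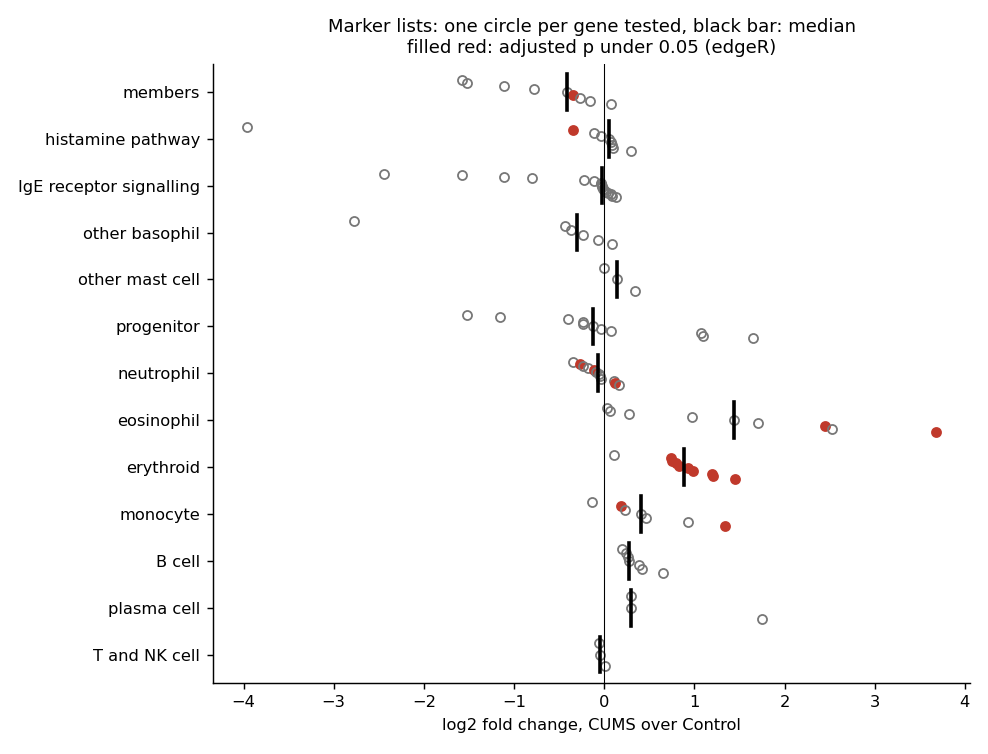
Log2 fold change of CUMS over Control for each tested gene of the 13 lists (circles, filled red where the adjusted edgeR p is under 0.05) with the list median (black bar). The members have a median of -0.41, the eosinophil and erythroid lists medians of 1.44 and 0.88, and the histamine and IgE receptor signalling lists medians of 0.05 and -0.02.

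Among the genes whose levels across the 6 libraries were most like that of Hdc were Tlr2, Junb and Sema6b, with Pearson correlations of 0.9984, 0.9979 and 0.9959 of log2 CPM among 6445 genes of at least 10 CPM. These 3 genes fell, with log2 fold changes of -0.58 for Tlr2, -0.59 for Junb and -1.12 for Sema6b (edgeR adjusted p = 1.3e-05, 1.2e-05 and 3.6e-05). The most opposed were Ifit3b, LOC68395, Mfsd14b, Abcg1 and H2-K1, with correlations of -0.9978 to -0.9946. These 6 points form 2 groups of 3, so that any gene that separates the groups cleanly reaches a high value, and the points share library depth and scaling. Of the 8 markers, Gata2 (0.90), Prss34 (0.84) and Ms4a2 (0.82) had the highest correlations with Hdc and Kit (-0.52) the lowest.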

How the data were processed

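RNA from sorted bone marrow neutrophils of 3 CUMS and 3 Control samples (1 µg per library, TruSeq chemistry) was sequenced as pairs of 150 bp, per the labels' protocols. HISAT2 2.1, featureCounts 1.6.4, cutadapt 1.16.5, bcl2fastq 2.19, DESeq2 2.11.40.6 and build mm10 are listed, with no role stated, per the submitters' processing notes. The deposited values are whole numbers per gene and were taken as estimated counts, because of their steps of 4. They were already whole, so rounding changed none. Rows were named by symbol, and where a symbol recurred the row with the highest total kept it.

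The values entered edgeR 4.0.16 (R 4.3.3) with filterByExpr, TMM scaling and a quasi-likelihood F test of group, with no covariate. P-values were adjusted by Benjamini-Hochberg over all 15778 genes tested (threshold 0.05). CPM are TMM-scaled, and errors are SD over libraries or SE from the F statistic. The test was tried on simulated counts first. Levels per kb used the union of exons in GENCODE M21 (GRCm38), which also gave coordinates and held all 127 list symbols. No coordinates came from the files. Reads of overlapping and antisense genes cannot be told apart where strand is not stated. In GENCODE M21 the only genes overlapping a member were Mir7007 (Cpa3) and Mir6949 (Mcpt8), each with 0 estimated counts in total. Promoters came from RefSeq (GRCm38.p6) and were found for all 9 members.

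Alternatives were RLE scaling, no filter, values divided by 4, limma voom (limma 3.58.1), DESeq2 1.42.0, a replicate block, longest transcripts and leaving out each library. Members and lists were chosen with earlier results of these data known. Named genes were the members, every tested histamine pathway gene, called genes of the other lists and the 5 genes most like and most opposed to Hdc, some of which are not reported here. Further genes of those lists, and the neighbours, were chosen after their values were seen.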

Additional observations from a re-analysis of the deposited data

How the results depend on the processing

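Hdc kept its direction and its call in all 12 alternative fits, and Kit, Mcpt8, Prss34, Cd200r3 and Fcer1a kept their direction and stayed uncalled in each fit that gave a value. The 2 values that changed sign were both of Cpa3, at 0.24 without CUMS replicate 2 and 0.02 without Control replicate 1 (range without 1 library -0.47 to 0.24). Ms4a2 passed with the values divided by 4 (-1.58, adjusted p = 0.036). Gata2 passed with the values divided by 4 (-1.52, 0.024), limma voom (-1.63, 0.026) and the replicate block (-1.66, 0.024), and without 1 library its log2 fold change ran from -2.14 to -1.28. DESeq2 gave no adjusted p for Cpa3, Ms4a2, Fcer1a, Gata2 or Cd200r3, and Fcer1a was filtered out after division by 4. The count of members called was 3 with the values divided by 4, 2 with limma voom, 2 with the replicate block and 1 to 2 without 1 library.

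Over all genes, 710 were called, against 462 with no filter, 1239 with DESeq2 and 305 to 697 without 1 library (697 without CUMS replicate 1, 350 without CUMS replicate 2, 305 without CUMS replicate 3, 462, 341 and 348 without Control replicates 1 to 3). Of other lists, the counts with the values divided by 4 were 1 for IgE receptor signalling, 1 for other basophil markers, 2 for progenitors and 1 for B cells. Progenitor counts were 2 with the replicate block, 2 with limma voom and 1 with DESeq2, and B cell counts 1 with the block and 1 with DESeq2. These lists share genes with the members. The IgE receptor signalling call was Ms4a2. Gata2 was 1 of the 2 progenitor calls with the values divided by 4, the block and limma voom. It was also the 1 progenitor call without CUMS replicate 2. The eosinophil count was 1 with DESeq2, which gave an adjusted p for 10575 genes and left the others uncalled. Neutrophil markers gave 3 calls, 1 with RLE scaling, 0 with no filter and 7 with the block. Without 1 library the counts were 0 to 1 for other basophil markers (1 without CUMS replicate 1) and for progenitors (1 without CUMS replicate 2 or Control replicate 2), and 0 to 7 for neutrophil markers (7 without CUMS replicate 1). They were 1 to 2 for eosinophil markers (1 without CUMS replicate 2 or 3 or Control replicate 3) and for monocyte markers (2 without CUMS replicate 1 and 1 without each other library). With the longest transcript as length, Hdc was at 207.8, Kit at 6.03 and Cd200r3 at 0.129 CPM per kb, which puts Cd200r3 above Fcer1a. The causes of these shifts were not tested.

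The replicate numbers are shared by the groups, but same-numbered libraries did not deviate together (correlations of deviations 0.008, 0.003 and -0.026), so the block is not taken as a pairing. With it the count over all genes was 931. Not every library correlated best with its own number. Depth limits the members under 5 CPM: with as few as 0 to 49.0 read-pair equivalents per library for 6 of them, the intervals of their changes were wide (Fcer1a -3.61 to 1.39 on the log2 scale).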
